A study of Mus musculus with 104 samples.

Results

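Methylation was followed at the imprinted loci H19, Kcnq1ot1, Snrpn, Peg3, Mest, Peg10, Gnas, Igf2r, Plagl1 and Grb10, each taken as 1 fixed window of the mouse genome (mm9), in liver, muscle and heart before and after birth. The CpGs were chosen by position alone. Of the 91022 CpGs listed in any of the 3 tissue tables, 90 lay in the windows, with 60 of 70259 in liver, 54 of 46085 in muscle, 75 of 53520 in heart and 39 in all 3 tissues. Only 6 of the 10 windows held any of them. Gnas held 39, Grb10 26, Peg10 17, Snrpn 3, Igf2r 3 and H19 2. The Kcnq1ot1, Peg3, Mest and Plagl1 windows held none, so their methylation was not analysed here.

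The study used reduced representation bisulfite sequencing (RRBS), which reads methylation at CpGs near sites of the enzyme MspI. All libraries came from untreated C57BL/6 mice (C57BL/6J in the methods), with no genetic change named, in 16 groups of tissue and age. Liver had 4 libraries before birth at E18.5 (labelled E18), 4 on postnatal day 1 (P1), 4 on P5, 3 each at P10 and P15, and 5 at P20. Muscle had 4, 5, 3, 4, 4 and 4 libraries at the same ages. Heart had 4, 4, 5 and 5 libraries at P1, P5, P15 and P20, and its E18.5 and P10 ages were not analysed here. Reads of an inbred strain do not separate the maternal from the paternal allele, and whole tissues were used, so a change of the cell mixture and a change within cells cannot be told apart. The labels number the libraries of a group without naming the animals, so the p-values below measure the spread between these libraries.

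Imprinted genes are expressed mainly from the allele inherited from 1 parent. Most imprinted clusters hold an imprinting control region that gains methylation in the egg or the sperm and keeps it on that allele alone through the wave of demethylation in the early embryo. The zinc-finger protein ZFP57 binds a methylated hexamer in many of these regions and helps to preserve the mark, while CTCF binds the unmethylated control region upstream of H19 and insulates Igf2 from shared enhancers. A CpG that is fully methylated on 1 allele and free of methylation on the other gives an intermediate level in bulk DNA.

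The 90 CpGs are cytosines of 88 CpG dinucleotides, since 2 dinucleotides, both in Gnas, were read on both strands. They fell into 12 runs, a run being CpGs no more than 1000 bp apart. The 7 stretches below show where the CpGs lie and how closely they are spaced, 5′ to 3′, with the CpGs that have values in capitals; all are from the mm9 genome.
H19 exon, chr7:149761688-149761734, minus strand: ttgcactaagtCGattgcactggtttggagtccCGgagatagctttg
Snrpn start, chr7:67150061-67150127, minus strand: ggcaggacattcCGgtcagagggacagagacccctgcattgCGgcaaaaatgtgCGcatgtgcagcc
Igf2r intron and Airn, chr17:12935090-12935148, plus strand: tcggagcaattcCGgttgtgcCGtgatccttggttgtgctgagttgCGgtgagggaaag
Peg10 coding exon, chr6:4705935-4705977, plus strand: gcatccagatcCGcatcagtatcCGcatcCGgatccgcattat
Gnas, promoter of Nespas, chr2:174111081-174111237, plus strand: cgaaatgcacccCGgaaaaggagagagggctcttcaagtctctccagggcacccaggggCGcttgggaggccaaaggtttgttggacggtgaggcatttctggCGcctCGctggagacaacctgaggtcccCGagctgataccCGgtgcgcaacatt
Gnas, exon of the extra-large form, chr2:174125446-174125607, plus strand: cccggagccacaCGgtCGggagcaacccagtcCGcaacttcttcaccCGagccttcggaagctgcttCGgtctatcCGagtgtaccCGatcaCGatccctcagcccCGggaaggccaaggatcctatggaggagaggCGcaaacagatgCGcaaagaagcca
Grb10, start inside the gene, chr11:11926766-11926896, minus strand: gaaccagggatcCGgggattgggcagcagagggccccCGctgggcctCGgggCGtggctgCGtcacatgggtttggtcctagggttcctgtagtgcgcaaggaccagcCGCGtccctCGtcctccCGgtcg

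Their positions decide what each window can show. The 2 H19 CpGs lie within an exon of H19, a noncoding RNA expressed from the maternal allele, 721 and 743 bp after its nearest annotated start, and not in the control region upstream. The window held 3 matches to the core of the CTCF consensus at chr7:149766214-149766227, chr7:149766669-149766682 and chr7:149767939-149767952, which lie 2166, 2621 and 3891 bp upstream of the outermost H19 start. The nearest of these matches is 4492 bp beyond the last H19 CpG with a value, so no value of this window describes a CTCF match. The matches are 5′ to 3′ on the minus strand.
first match: CCGCGTGGTGGCAG
second match: CCGCGCGGTGGCAG
last match: CCGCGTGGTGGCAG

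The other windows were read at annotated starts or inside genes. The 3 Snrpn CpGs lie 31, 44 and 73 bp upstream of an annotated start of Snrpn, which encodes a spliceosomal protein made from the paternal allele. The 3 Igf2r CpGs lie in an intron of Igf2r, the receptor that clears the growth factor IGF2, and 838, 847 and 872 bp after a start of Airn, the antisense RNA that silences paternal Igf2r. In the window of Peg10, a paternally expressed gene derived from a retrotransposon, run 1 holds 12 CpGs 49 to 184 bp after the Peg10 start, where Sgce (epsilon-sarcoglycan) shares the promoter, and run 2 holds 5 CpGs in the coding exon at 8641 to 8857 bp. Gnas encodes the stimulatory G-protein alpha subunit and further proteins from other starts. Its run 1 (9 CpGs) spans the start of the antisense RNA Nespas, and runs 3 (15 CpGs) and 4 (13 CpGs) begin 160 and 2098 bp after the start of the extra-large form, while runs 2 and 5 are single intronic CpGs. Grb10 encodes an adaptor that restrains insulin and IGF signalling; its run 1 (12 CpGs) lies around a start inside the gene and its run 2 (14 CpGs) around the outermost starts.

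The share of CpGs at intermediate methylation was set beside that of the tables they came from. In liver, 34 of 60 CpGs of the windows (56.7%) had a mean over all libraries of 30 to 70%, against 27.4% of all CpGs of the liver table. In heart the count was 42 of 75 (56.0%) against 26.5%, and in muscle 18 of 54 (33.3%) against 25.1%. With a band of 35 to 65% the muscle shares were 20.4% and 18.04%. Neighbouring CpGs of a window share reads and are not independent, so these shares are a description. The CpGs also lay in denser sequence, with a median of 12 CpGs within 100 bp against 6 for all CpGs of the tables.

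A window level was computed in each library as the mean methylation of the window's CpGs, with each CpG centred on its own mean so that a library without a value at some CpGs is not shifted by their absence. Over all ages the H19 level was 59.0% ± 11.8 (SD, n = 21 libraries) in liver, 37.3% ± 13.2 (n = 24) in muscle and 64.6% ± 14.2 (n = 16) in heart. The liver libraries spanned 39.8 to 88.1% (median 58.4%), the muscle libraries 7.98 to 53.9% (median 40.9%) and the heart libraries 33.9 to 92.2% (median 66.1%). H19 was therefore lowest in muscle, although all 3 ranges overlapped.

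Snrpn had the lowest level of the 6 windows in muscle and in heart. Its level was 29.7% ± 18.9 (n = 22) in liver, 13.1% ± 12.6 (n = 23) in muscle and 21.5% ± 18.8 (n = 16) in heart. Libraries at 0% occurred in muscle and heart, and single libraries reached 72.8% in liver, 56.7% in muscle and 74.4% in heart. This was a wide range for 3 CpGs within 43 bp, whose means within a tissue differed by 3.16 percentage points or less. Most of the Snrpn spread was therefore between libraries and not between its CpGs.

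Igf2r differed between liver and muscle by less than its SD. Its level was 30.1% ± 9.66 (n = 23, 9.24 to 52.5%) in liver, 29.1% ± 13.04 (n = 22, 3.03 to 55.7%) in muscle and 38.0% ± 13.03 (n = 17, 22.9 to 65.7%) in heart. Within a tissue its 3 CpGs had means within 1.73 percentage points of each other.

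Peg10 combined a pair of distinct runs. The promoter run was at 34.7% ± 15.97 (n = 22) in liver, 21.8% ± 14.7 (n = 24) in muscle and 28.8% ± 16.4 (n = 16) in heart. The run in the coding exon was at 88.1% ± 7.07 (n = 23), 94.1% ± 3.22 (n = 23) and 90.6% ± 9.07 (n = 18). All CpGs of the coding run had means above 80% and all CpGs of the promoter run below 40%, so the window level of 50.6% in liver, 39.6% in muscle and 44.6% in heart describes neither run.

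Gnas was read in 3 runs and 2 single CpGs. Its window level was 44.3% ± 8.03 (n = 23) over 17 CpGs in liver, 33.0% ± 7.08 (n = 24) over 22 in muscle and 40.7% ± 11.3 (n = 18) over 31 in heart. In the run at Nespas the CpG means were 36.0 to 37.4% in liver, near 28% in muscle and 25.7 to 35.9% in heart. In the first run of the extra-large exon the highest means were 79.1% in liver and 69.6% in heart, both at 174123527, and the lowest were 37.7% and 34.3%. The single intronic CpG of run 5, with values in muscle only, was at 12.4% ± 10.6 (n = 21).

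Among the 6 windows Grb10 had the lowest level in liver, at 21.5% ± 3.69 (n = 23) over 18 CpGs. It was at 15.1% ± 4.73 (n = 24) over 8 CpGs in muscle and 25.5% ± 6.73 (n = 17) over 20 CpGs in heart, so these levels do not rest on the same CpGs. Its run at the inner start held CpGs from 17.1 to 61.4% in liver and from 11.3 to 55.3% in heart, while the 3 of them with values in muscle were between 10.5 and 16.7%. At the outermost starts, the first 10 CpGs had means of 1.02 to 7.13% in every tissue with a value, and the last 4 had means of 10.4 to 46.8%. The plot of CpG means in order along the chromosome shows these steps.

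**Figure D1:**
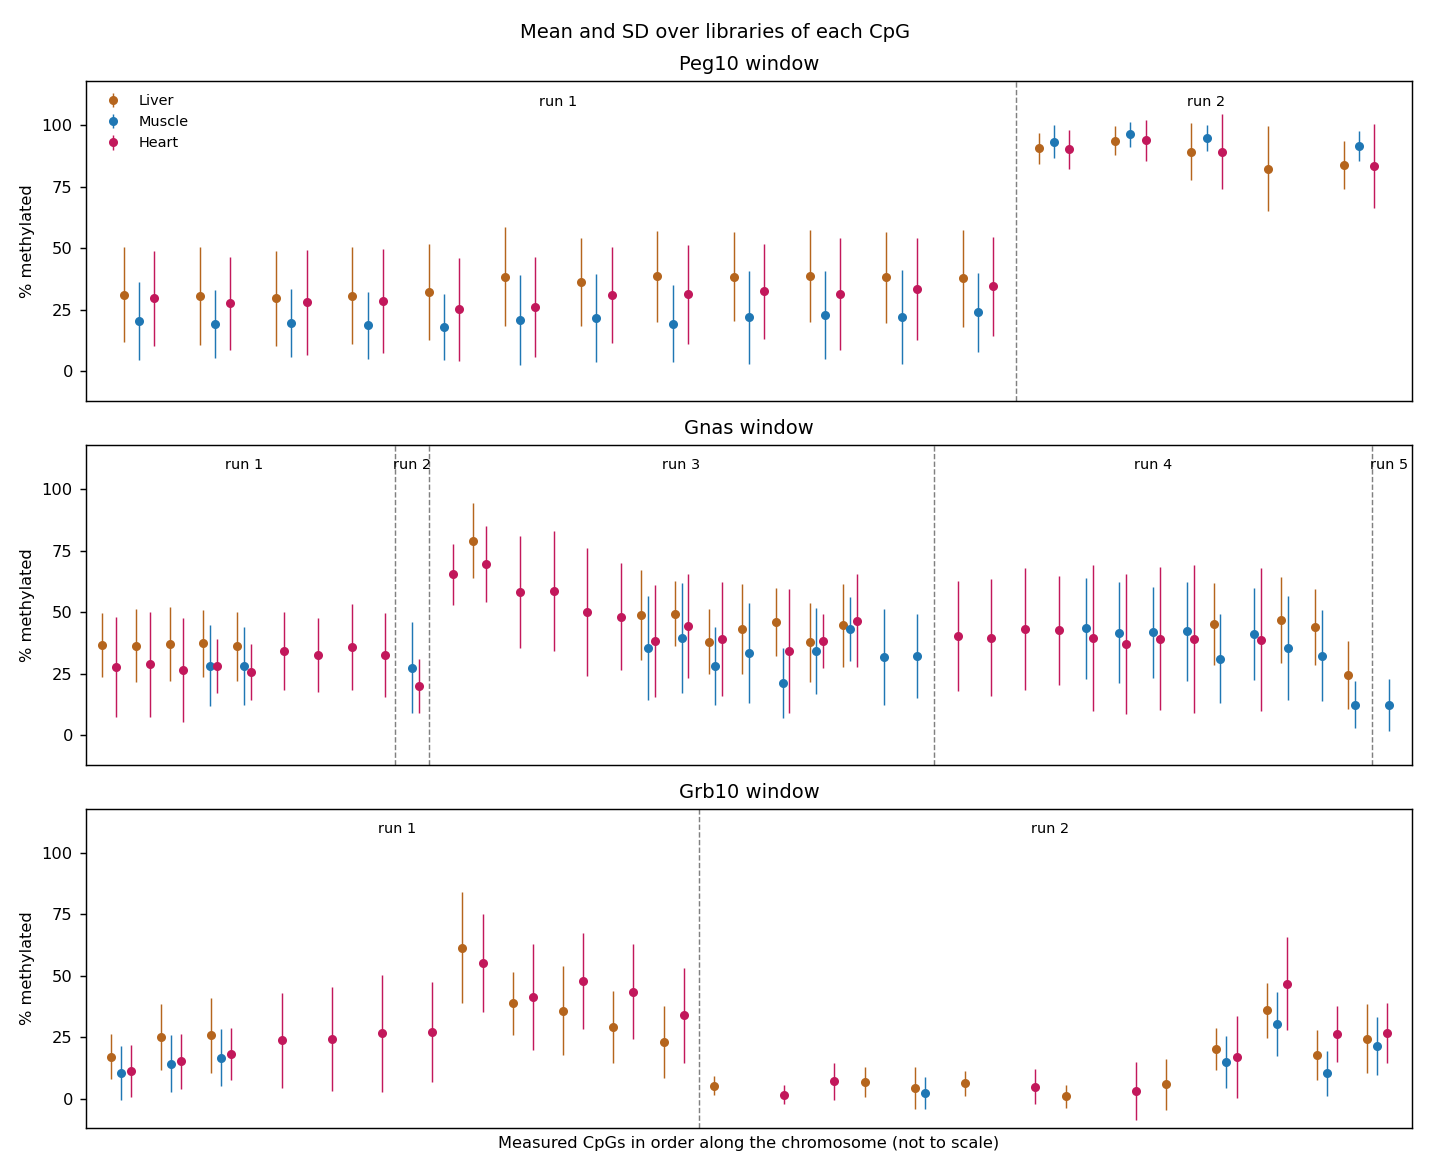
Mean methylation (% methylated, vertical axis) of each CpG of the Peg10, Gnas and Grb10 windows in chromosome order (horizontal axis, not to scale), with bars of 1 SD over the libraries of a tissue and dashed lines between runs. Peg10 steps from the promoter run (18 to 39%) to the coding run (82 to 96%), and the first 10 CpGs of Grb10 run 2 lie near 0%.

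In each tissue the order of the window levels set windows of different CpGs side by side. Liver ran from H19 (59.0%) through Peg10 (50.6%), Gnas (44.3%), Igf2r (30.1%) and Snrpn (29.7%) to Grb10 (21.5%). Neighbours in that order differed by less than the larger SD of the pair, except Gnas and Igf2r. In muscle the exception was Igf2r (29.1%) over Grb10 (15.1%), and in heart it was H19 (64.6%) over Peg10 (44.6%).

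The spread between libraries of the same tissue and age was set beside that of other CpGs of like level. Among CpGs with means of 30 to 70%, the median SD within an age was 18.3 percentage points at the windows against 15.4 over the liver table, 19.7 against 17.4 in muscle and 21.2 against 17.9 in heart. Strands could be compared within a library, since plus-strand and minus-strand CpGs come from different reads, and from different dinucleotides except for the 2 of Gnas read on both strands, 1 each in runs 3 and 4. In Peg10 run 1 the 5 plus-strand and 7 minus-strand CpGs differed by a median of 11.9 percentage points within a liver library, 11.5 in muscle and 12.6 in heart. In Gnas run 4 the median was 17.4 points in muscle and 27.9 in heart, where single libraries differed by up to 77.3 points. The files used here give no number of reads behind single values, so the part of read sampling in this spread was not tested.

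**Figure D2:**
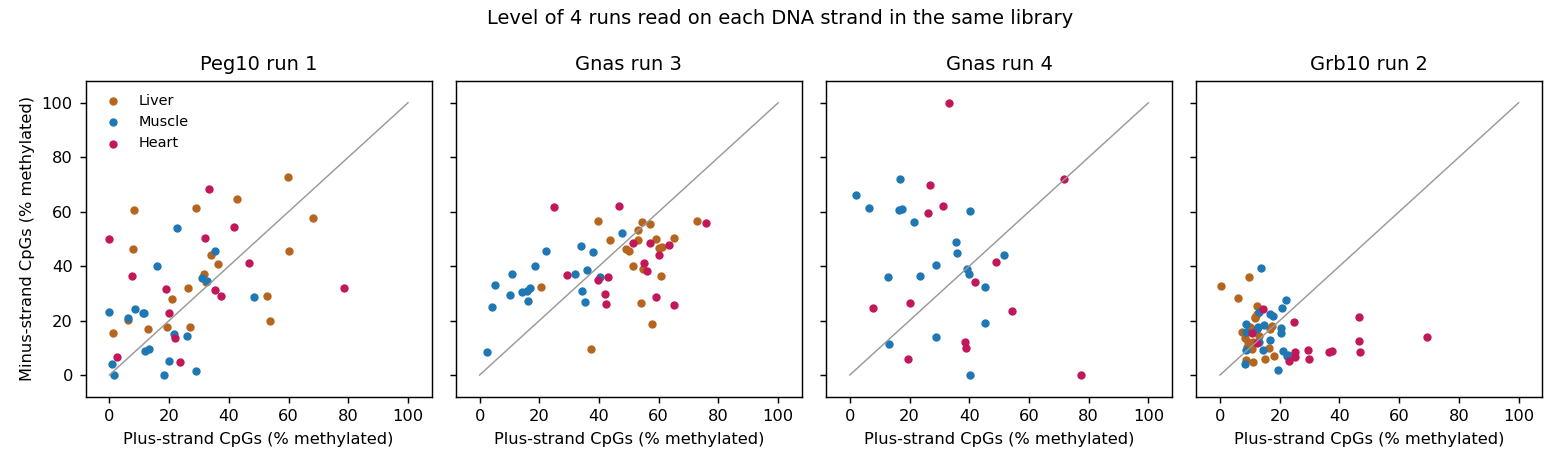
Level of the plus-strand CpGs (horizontal axis, % methylated) against that of the minus-strand CpGs (vertical axis, % methylated) of 4 runs, 1 point per library, with the line of equality. Points scatter widely about the line, with median absolute differences of 11.5 to 12.6 percentage points in Peg10 run 1.

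Change with age was tested at each CpG over the whole table with limma, between E18.5 and P20 in liver and muscle and between P1 and P20 in heart. A call needed both a Benjamini-Hochberg adjusted p no higher than 0.1 and a difference over 5 percentage points. In liver, 1 of 60 CpGs of the windows was called, while 13.2% of the 70179 CpGs tested were called, 10.9% higher and 2.27% lower at P20. The median difference was 2.45 percentage points over the windows and 7.48 over all CpGs. Without E18.5 replicate 14 or 15, or P20 replicate 2 or 3, the count was 2. At an unadjusted p under 0.05 there were 5 of 60, with 3 higher and 2 lower at P20, beside 17911 of all CpGs, with 14991 higher and 2920 lower.

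The called CpG was 4706054 in the Peg10 coding exon, which had values in liver only. At E18.5 it was at 83.0, 71.4, 63.6 and 47.6%, and at P20 at 100, 100, 95.5 and 100%. Every P20 library was above every E18.5 library, and the difference was 32.4 percentage points ± 7.10 (SE, limma, adjusted p = 0.0402). At P1 it was at 52.6, 81.0, 79.0 and 85.0%, at P5 at 94.1, 52.1 and 84.4%, at P10 at 97.6% in its only library with a value, and at P15 at 90.0, 88.2 and 100%. The remaining 4 CpGs of the exon were not called in liver, with differences of 1.85 to 10.1 percentage points. As a run the exon was higher at P20 by 11.6 percentage points (exact permutation test, p = 0.0238), the only one of 24 age tests of runs with p at most 0.05. Leaving out single libraries gave differences from 6.97 (without E18.5 replicate 15) to 15.4, and p stayed at most 0.05 in only 1 of these 9 tests. Over the minus-strand CpGs alone the difference was 6.85 (p = 0.254 by the same exact test).

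Muscle and heart gave no call with limma at any CpG. In muscle 0 of 54 CpGs of the windows were called and 0.00% of 45496 over the table, with 1 and 3718 at an unadjusted p under 0.05. In heart 0 of 75 were called and 0.00% of 53429, with 1 and 4873 at that unadjusted p. An ordinary linear model per CpG also called 0 CpGs of the windows in both tissues, and 6 in muscle and 17 in heart over the tables. The median difference over the windows was -1.47 percentage points in muscle and -0.316 in heart, against -0.249 and 1.47 over all CpGs.

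**Figure D3:**
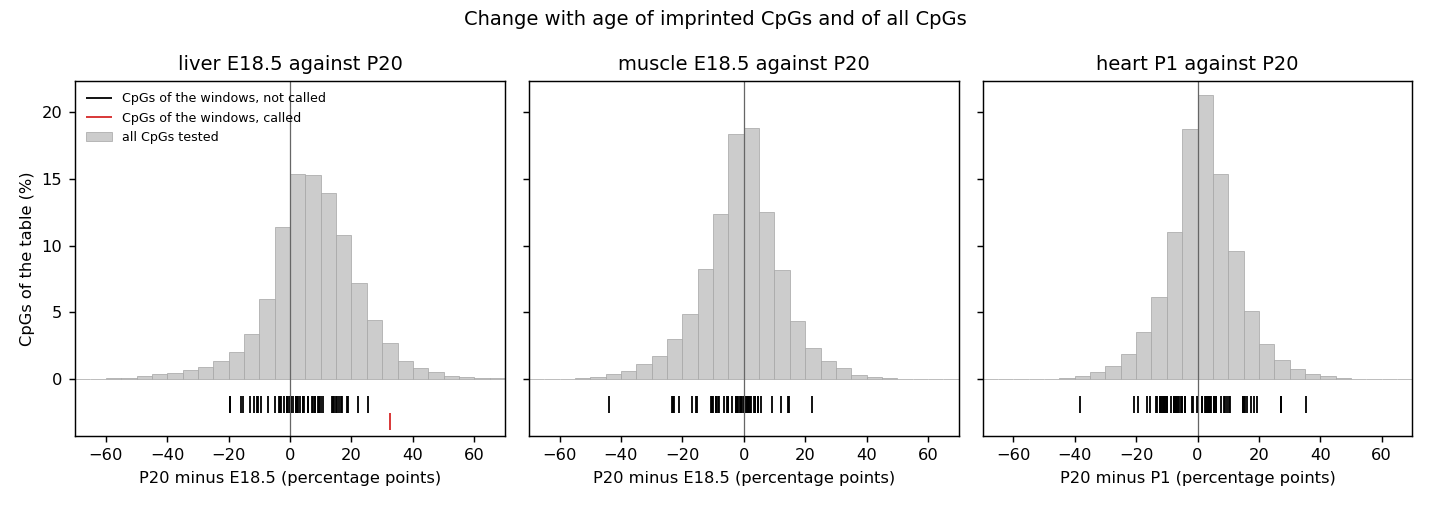
Difference between ages at each CpG (horizontal axis, percentage points), with grey bars for the share of all CpGs of the table (vertical axis, %) and ticks for CpGs of the windows. In liver the bars are centred to the right of 0 (median 7.48), and the only called CpG of the windows is at 32.4.

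No window level passed an exact permutation test between the ages with all CpGs used. Over the CpGs with every value, Grb10 in liver differed by -11.6 percentage points (exact permutation test, p = 0.0159). The 18 tests of 6 windows in 3 tissues gave p-values from 0.229 to 0.914, where the group sizes allowed a p of 0.0286 or lower. For H19 the level differed by -14.5 percentage points in liver and -5.29 in muscle, while the heart difference was 10.4. The liver H19 libraries were at 88.1% at most and 50.4% at least at E18.5 (mean 66.0% ± 16.3, n = 4) and between 49.0 and 54.0% at P20 (51.6% ± 2.50, n = 3), so the groups overlapped. Snrpn differed by -11.0 in liver, 2.09 in muscle and -7.24 in heart. Gnas differed by 7.63, -7.33 and 4.49, and Igf2r by 2.32, -6.72 and -1.83. Grb10 had the smallest differences in liver and muscle, -0.567 and 0.296, and 4.19 in heart. In liver its runs differed in opposite directions, by 4.06 in run 1 (exact permutation test, p = 0.6) and -3.21 in run 2 (exact permutation test, p = 0.0714). The minus-strand CpGs of liver Grb10 run 2 were at 25.4% at E18.5 and 10.6% at P20, and the plus-strand CpGs at 7.78% and 11.6%. Peg10 differed by 7.25, -2.21 and -3.10, where the muscle value turned to 1.44 on the minus strand and the heart value to 14.4 with a plain mean, 4.36 over CpGs with every value and 1.91 without P20 replicate 2. Differences within the spread of the libraries were not detectable with groups of this size.

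Snrpn was highest at P10 in both tissues with that age, a pattern noticed in the values and not tested. The 3 liver libraries of P10 were at 29.5, 72.8 and 71.2%, and the 4 muscle libraries at 56.7, 31.2, 23.0 and 6.86%. The P20 libraries were at 9.99, 28.6, 5.34 and 20.9% in liver and at 13.9, 0, 16.7 and 7.33% in muscle. The P10 and P20 libraries thus did not overlap in liver and overlapped in muscle. The liver P10 libraries overlapped those of E18.5, P1, P5 and P15, where single libraries reached 48.0, 32.0, 41.9 and 54.0%.

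**Figure D4:**
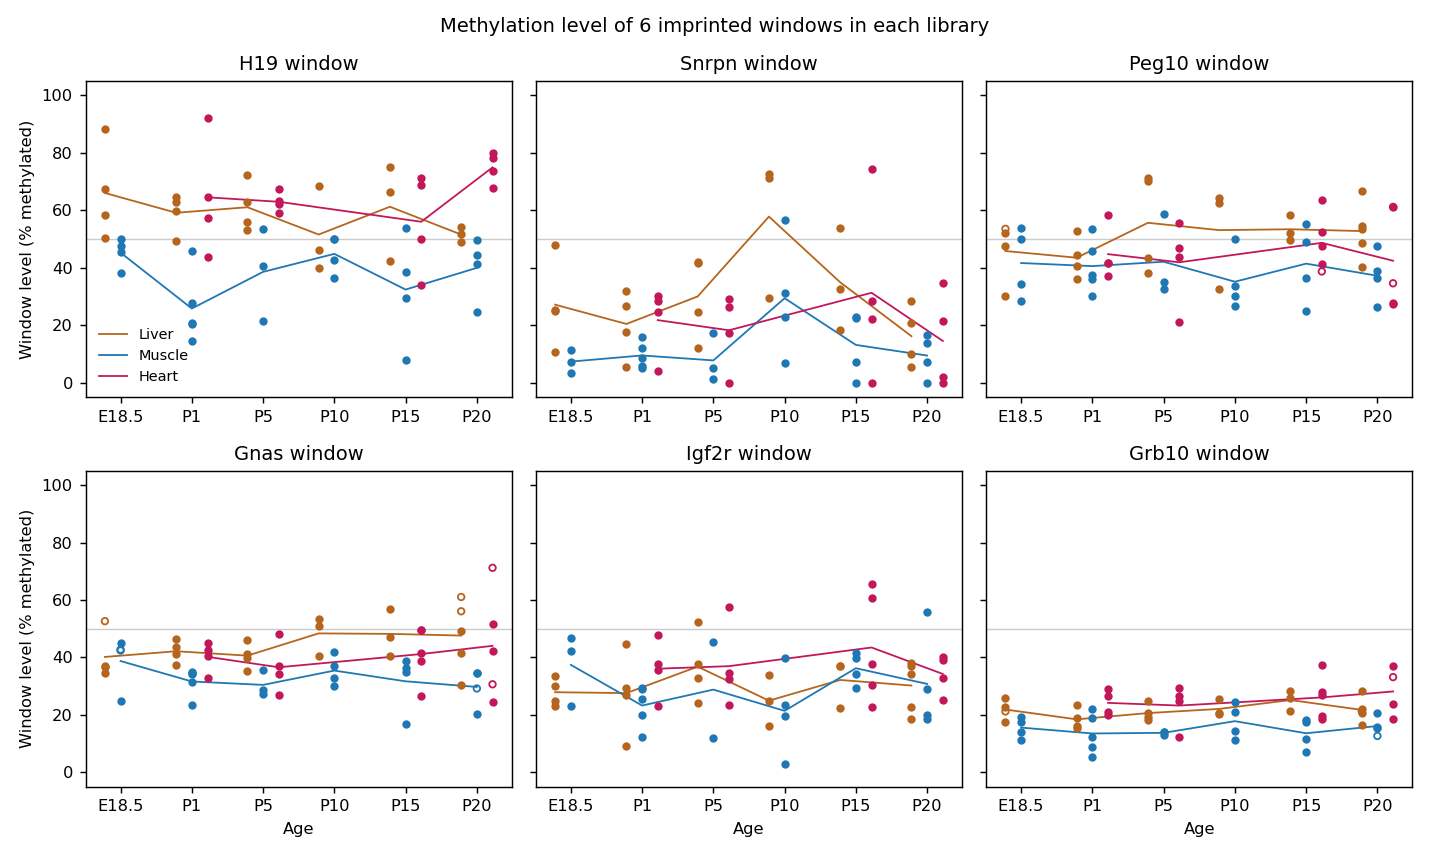
Window level (vertical axis, % methylated) of each library by age (horizontal axis) in 6 windows, with lines through the group means, a grey line at 50% and open circles for libraries with values at fewer than 50% of the CpGs. The muscle libraries of H19 sit between 7.98 and 53.9%, below most liver and heart libraries.

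Whether liver and muscle changed differently was tested with limma's interaction term. At an adjusted p of at most 0.1, 1 of 45 CpGs of the windows was called, against 4.49% of the 33599 tested, 3.64% with the change higher in liver and 0.854% with it lower. It was Gnas 174123640, in the exon of the extra-large form. In liver it was at 19.6, 41.1 and 41.7% at E18.5 and at 50 and 51.5% at P20. In muscle it was at 82.1 and 73.3% at E18.5 and at 30.3, 39.1 and 31.8% at P20. The liver libraries were all higher at P20 and the muscle libraries all lower, and the changes differed by 60.6 percentage points ± 12.4 (SE, limma, adjusted p = 0.0396). The call rests on 2 or 3 values per group and was lost on the logit scale (adjusted p = 0.233). Without liver P20 replicate 3 or 5, or without muscle E18.5 replicate 9 or 14, it had under 2 values in a group and was not tested, and under the 15 alternatives that tested it, it was called in 14. Its neighbours in the run, Gnas run 3, differed by -12.8 percentage points at the lowest, with a median of -2.69 over the run's 7 CpGs tested.

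Tissues were compared at P1, P5, P15 and P20, with age as a factor, at the 27506 CpGs with values in every group. Most CpGs of the windows had a lower mean in muscle. Against muscle, 34 of 39 CpGs of the windows were higher in liver, beside 60.3% of all CpGs, with a median difference of 12.9 percentage points against 2.45 over all CpGs. Of the 39, 14 were called, all higher in liver (9 without liver P15 replicate 2), where 34.9% of all CpGs were called, 27.7% higher and 7.19% lower in liver, beside 35.9% at the windows. Fits without a library tested only CpGs that kept at least 2 values in each group. In the P20 libraries alone 1 of 39 was called, where 4223 of all CpGs were called. The 14 were both H19 CpGs, all 3 Snrpn CpGs, 3 of 12 in the Peg10 promoter, 3 in Gnas and 3 at the inner Grb10 start. The Igf2r CpGs and the Peg10 coding exon had none. Library means over the 28236 CpGs of all 3 tables moved the same way, at 57.9% ± 2.82 (n = 16) in liver, 50.6% ± 3.79 (n = 16) in muscle and 53.9% ± 2.30 (n = 18) in heart, and their part in these differences was not tested.

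Of the 6 window levels over these ages, that of H19 differed most from muscle in both liver and heart. Its CpG at 149761700 was at 44.4 to 78.3% in liver (median 60.9%, n = 14), at most 57.9% in muscle (median 41.9%, n = 15) and 35.5 to 94.4% in heart (median 69.7%, n = 16). Muscle was lowest, and its range overlapped both others. The difference was 24.7 percentage points ± 4.96 between liver and muscle (SE, limma, adjusted p = 8.9e-05) and 31.7 ± 4.80 between heart and muscle (limma, adjusted p = 1.5e-06). In the P20 libraries alone the liver-muscle difference at this CpG was 11.9 (limma, adjusted p = 0.382). The neighbouring CpG at 149761722 differed by 23.4 (limma, adjusted p = 0.00025) and 28.4 (limma, adjusted p = 1.5e-05), with adjusted p of 0.465 and 0.101 in the P20 libraries alone. As a window, H19 was higher by 24.0 percentage points in liver than in muscle (permutation test within ages, p = 6e-05) and by 30.3 in heart than in muscle (p = 1e-05, the smallest that 100000 permutations can give). Between liver and heart it differed by -6.36 (permutation test, p = 0.193), and by -8.20 to -3.99 with single libraries left out. At P20 alone the liver and muscle libraries of H19 differed by 11.6 percentage points (exact permutation test, p = 0.114), and liver was lower than heart by 23.4 (p = 0.0286 by the same exact test).

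Snrpn was also lowest in muscle. Over these ages its level was 5.34 to 54.0% in liver (mean 24.8% ± 14.1, n = 15), 0 to 22.8% in muscle (10.1% ± 7.45, n = 16) and 0 to 74.4% in heart (21.5% ± 18.8, n = 16). It was higher by 15.4 percentage points in liver than in muscle (permutation test, p = 0.00081) and by 11.5 in heart than in muscle (permutation test, p = 0.0289). The heart-muscle p rose above 0.05 without heart P15 replicate 2 (7.91, p = 0.063 by the same permutation test), heart P20 replicate 1, or muscle P15 replicate 3 or 4. At P20 alone these were 6.74 (exact permutation test, p = 0.343) and 5.09 (exact permutation test, p = 0.629).

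At Gnas, the CpG with the largest difference between liver and muscle was 174123686, in the extra-large exon. It was at 20.8 to 67.7% in liver (median 44.1%, n = 13), 0 to 33.3% in muscle (median 19.2%, n = 13) and 0 to 100% in heart (median 33.3%, n = 15). Liver was above muscle by 26.3 percentage points ± 7.04 (SE, limma, adjusted p = 0.00314), with overlapping ranges, but by 15.7 in the P20 libraries alone (limma, adjusted p = 0.689). The Gnas window was higher by 12.8 in liver than in muscle (permutation test, p = 3e-05), and by 7.15 (permutation test, p = 0.185) over its minus-strand CpGs alone. Heart and muscle differed by 5.19 (permutation test, p = 0.398), and by 1.54 (permutation test, p = 0.685) without heart P20 replicate 5, which was fitted at 108.1% from 1 of 14 CpGs.

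Between liver and heart, single CpGs of the 2 Grb10 runs differed in opposite directions. At the inner start, 11925798 was at 5.56 to 55.6% in liver (median 23.6%, n = 13), 0 to 36.4% in heart (median 15%, n = 15) and 0 to 33.3% in muscle (median 9.34%, n = 14), and liver was above heart by 13.5 percentage points ± 4.53 (SE, limma, adjusted p = 0.0274), but by 6.26 in the P20 libraries alone (limma, adjusted p = 0.839). At the outermost start, 11938760 was at 2.56 to 37.8% in liver (median 11.6%, n = 16), 5.56 to 44.2% in heart (median 26.2%, n = 16) and 1.69 to 35.7% in muscle (median 12.5%, n = 14). Here liver was below heart, by -10.4 ± 3.83 (SE, limma, adjusted p = 0.0468; 0.101 on the logit scale). The difference at 11938760 was -25.6 in the P20 libraries alone, while at P1 liver, at 28.0% ± 9.21 (n = 4), was above heart, at 19.1% ± 11.5 (n = 4). Its neighbour 11938675 was at 46.8% ± 18.8 (n = 15) in heart and 26.7% ± 10.3 (n = 14) in muscle, a difference of 20.5 (limma, adjusted p = 0.00247; 0.501 in the P20 libraries alone). As a window Grb10 was higher by 7.41 in liver than in muscle (permutation test, p = 0.00021) and by 8.34 in heart than in muscle (permutation test, p = 0.00386). At P20 alone liver was above muscle by 3.91 (exact permutation test, p = 0.103), and its run 2 differed by -1.71.

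Of the 39 CpGs of the windows 5 were called between liver and heart (1 without liver P15 replicate 2), 4 higher and 1 lower in liver, where 25% of all CpGs were called, 19.1% higher and 5.90% lower in liver. The 4 higher in liver were 2 of Gnas run 1 and 2 of Grb10 run 1, among them Gnas 174111140, near Nespas, at 36.6% ± 13.6 (n = 15) in liver and 25.7% ± 11.2 (n = 16) in heart (limma, adjusted p = 0.0766), and Grb10 11925807, with a difference of 11.2 (limma, adjusted p = 0.0865). Each lost its call in 15 alternatives, among them the logit scale, the stricter limits, P20 libraries alone and single libraries left out. Between heart and muscle 7 of 39 were called, all higher in heart, where 23.9% of all CpGs were called, 15.8% higher and 8.14% lower in heart. The count was 2 without muscle P5 replicate 4, where CpGs left without 2 values in a group were not tested. The 3 tissue comparisons share their libraries in pairs, so their counts are not independent.

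Over the 6 windows, liver was higher than muscle in 6, with p at most 0.05 in 4 (H19, Snrpn, Gnas and Grb10), and heart was higher than muscle in 6, with p at most 0.05 in 3 (H19, Snrpn and Grb10). Between liver and heart 0 of 6 reached it, with permutation p-values from 0.182 to 0.535, although Gnas was higher in liver by 7.18 (permutation test, p = 0.024) over libraries with values at 50% or more of its CpGs, a setting chosen after seeing the data, and by 9.16 (permutation test, p = 0.0077) without heart P20 replicate 5, which was fitted at 102.03% from 1 of 12 CpGs. By run, Gnas run 1 was higher in liver than in heart by 10.97 (permutation test, p = 0.0119), and by 18.4 at P20 alone (exact permutation test, p = 0.0893). Grb10 run 2 differed by -7.06 (permutation test, p = 0.0301). Over its plus-strand CpGs it differed by -4.33 (permutation test, p = 0.356). Over libraries with values at 50% or more of its CpGs it differed by -6.14 (permutation test, p = 0.0542). Igf2r reached a p of at most 0.05 in none of its comparisons with all libraries, with 1.91 percentage points between liver and muscle (permutation test, p = 0.674), or -2.27 without muscle P5 replicate 4, and 7.93 between heart and muscle (permutation test, p = 0.118). The heart-muscle p was 0.0368 without muscle P20 replicate 3 and 0.0377 without muscle P5 replicate 3, by the same permutation test. Peg10 as a window differed by 8.57 between liver and muscle (permutation test, p = 0.0569, and above 0.05 in 23 of 32 tests without a single library). Its promoter run was higher by 12.9 in liver (permutation test, p = 0.0387). The run was higher by 12.2 with a plain mean (permutation test, p = 0.053) and by 13.9 over plus-strand CpGs (permutation test, p = 0.073). At P20 alone it was higher by 17.2 (exact permutation test, p = 0.135). The coding run was lower in liver by -3.98 (permutation test, p = 0.00388), and by -3.42 at P20 alone (exact permutation test, p = 0.222). In each of the tests with all libraries the ranges of the groups overlapped.

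**Figure D5:**
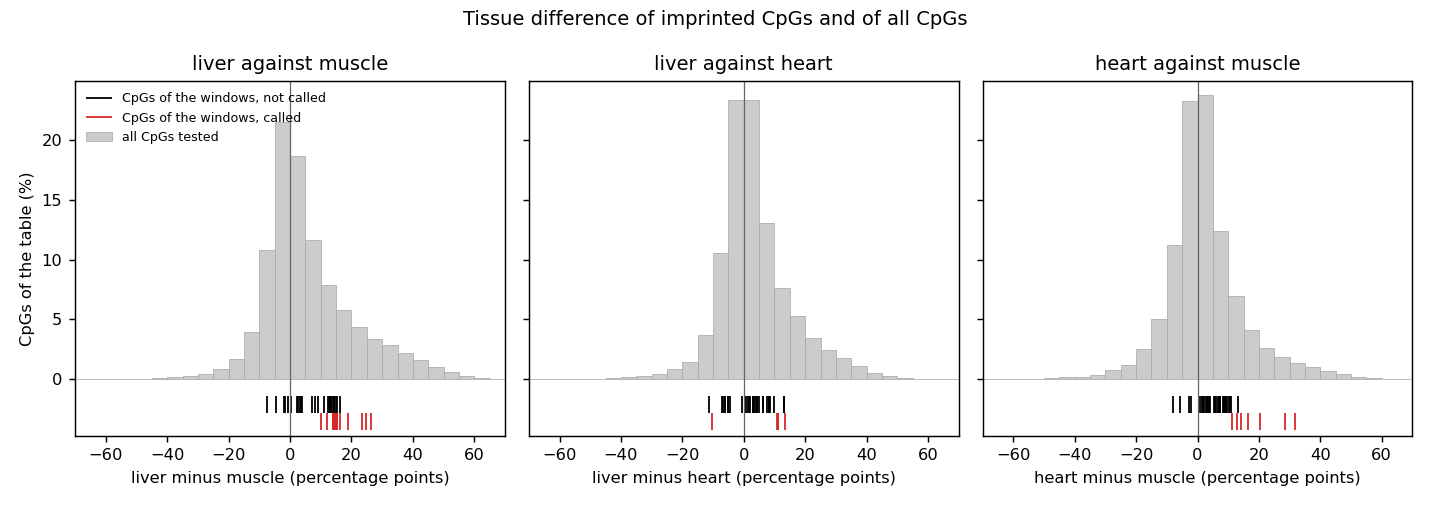
Difference between tissues at each CpG (horizontal axis, percentage points), with grey bars for the share of all CpGs tested (vertical axis, %) and ticks for the 39 CpGs of the windows. Against muscle, 34 ticks lie to the right of 0 for liver, and all 14 called are there.

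The hexamer TGCCGC, the core of the ZFP57 site, was searched on both strands within 100 bp of each CpG. It stood near 12 of the 90 CpGs of the windows (13.3%) and near 8.07% of the 90841 CpGs of the tables placed on the genome. The 12 were all 3 Snrpn CpGs, all 3 Igf2r CpGs and 6 of Grb10 run 2. Snrpn 67150086, in the second of the capitalised pairs of the Snrpn stretch above, is itself in a match. The CTCF core was near 0 of 90 and near 10 of 90841. A match is a description of sequence, and binding was not measured here.

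Imprinted genes outside the windows were read as a check on like loci. Of 57 listed genes 33 had CpGs within 2 kb of a start, 168 in all. Between 30 and 70% lay 62 of 120 in liver (51.7%), 49 of 114 in muscle (43.0%) and 55 of 126 in heart (43.7%). Mcts2, a retrogene expressed from the paternal allele, was at 43.0% ± 10.3 (n = 23) in liver, 32.5% ± 11.7 (n = 24) in muscle and 42.4% ± 14.5 (n = 18) in heart over 21 CpGs. Zrsr1, a paternally expressed splicing-factor retrogene inside Commd1, was at 35.8% ± 9.15 in liver, 32.8% ± 6.97 in muscle and 33.8% ± 7.33 in heart, and shares its CpGs with Commd1. Nap1l5, which shares its CpGs with its host Herc3, was at 47.9%, 36.9% and 33.8%. Peg12, a paternally expressed gene near Snrpn, was far lower, at 10.8%, 14.7% and 9.88%. Between E18.5 and P20 in liver 8 of these 120 were called, 3 of them at Mcts2, beside 13.2% over the table, and between liver and muscle 14 of 74, of which 13 were higher in liver, beside 34.9%.

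The genes most like the windows were sought over the 16 groups, by the root mean square difference between a gene's group means and the median of Gnas, Grb10 and Peg10. Of 329 genes with at least 5 CpGs within 2 kb of a start, the closest were Gm11733 (5.13 percentage points), Col11a2 (5.21), 1700048O20Rik (5.76), and Commd1 and Zrsr1 (5.82, on the same CpGs). Mcts2 was 7th at 5.99. Col11a2 encodes a collagen chain of cartilage. With at least 3 CpGs within 1 kb, 3 of the first 5 were shared, namely 1700048O20Rik, Commd1 and Zrsr1. Gm11733 and Col11a2 were then not among the first 20.

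Marker promoters gave a limited check of the tissue labels. Among markers with CpGs in all 3 tables, Foxa3 was the only one of 10 for liver, at 21.9% in liver, 25.6% in muscle and 27.7% in heart, and Ckm, Acta1 and Mylpf were 3 of 9 for skeletal muscle, with a mean of 50.3% in liver, 23.4% in muscle and 24.0% in heart. Of these 3, 2 were lowest in muscle, while Mylpf, on 1 CpG, was at 25.9% in muscle and 24.1% in heart. No heart or blood marker had CpGs in all 3 tables, so the share of blood cells in the liver libraries was not tested. By correlation over 28236 CpGs, all 65 libraries were closest to their own tissue.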

How the data were processed

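Per the labels, RRBS libraries of C57BL/6 (C57BL/6J in the methods) liver, muscle and heart were analysed. The authors aligned reads to mm9 with Bismark 0.7.6 and Bowtie2, called values under 10 reads missing, and removed CpGs missing in over 20% of samples or under 10% methylated in all. The deposited values are fractions of methylated reads per CpG and library, not normalized further, printed here as percent. In heart, 11678 CpGs lacked values in over 20% of the libraries kept here, and 9 heart columns that the labels used here do not name were left out. Read depth per value is unknown, so no counting interval is given. The mm10 tables and the locus-specific bisulfite table were not used here.

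CpGs were placed with the mm9 sequence and GENCODE vM1 annotation. limma 3.58.1 (R 4.3.3) was fitted to the fractions per CpG over the whole table, two-sided, with Benjamini-Hochberg adjustment over all CpGs tested and at least 2 values per group. Window levels were compared between ages with the exact permutation test and between tissues with 100000 permutations within ages, two-sided, without adjustment over the 18 tests of each kind. Runs were tested in the same way, without adjustment over 24 age tests and 21 tissue tests. Levels are fitted and can pass 0 or 100% where few CpGs have a value. Named CpGs were up to 3 called per comparison and direction by size; the Snrpn ages, the unadjusted counts, other called CpGs and runs were added after the values were seen. The windows, lists and tests were chosen with earlier results of these data known. Fits were tested on simulated data. Libraries of equal replicate number had deviations from their group means that correlated at -0.025 to 0.0482. Such correlations cannot show whether these libraries came from the same animal, and the main fits left them unpaired. Alternatives are given in the closing section.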

Additional observations from a re-analysis of the deposited data

Results flagged for a closer look

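The Gnas level of liver E18.5 replicate 14 stood far from its group, at 52.63% where the other 3 libraries were between 34.57 and 37.01%. It had values at 5 of 17 CpGs. In muscle the Gnas level of E18.5 replicate 14 was 24.68%, where the other 3 libraries were between 42.42 and 45.18%, with values at 22 of 22 CpGs. Of 75 groups of libraries checked in this way these 2 stood apart by the 95% limit of Dixon's test, which about 1 in 20 groups passes by chance. The replicate numbers do not show whether the libraries numbered 14 came from the same animal.

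The changes of liver and muscle with age differed at Gnas 174123640 by 60.58 percentage points, by limma's interaction term (adjusted p = 0.0396 over 33599 CpGs). Liver was higher at P20 by 16.6 and muscle lower, by -43.9. Leaving out liver P20 replicate 3 or 5, or muscle E18.5 replicate 9 or 14, left it with under 2 values in a group and so untested. It was called in 14 of the 15 alternatives that tested it, and not on the logit scale.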

How the results depend on the processing

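Counts of called CpGs changed as follows. With values required in every library, liver age calls fell to 0 (of 10 CpGs) and interaction calls to 0 (of 4), with 1411 and 278 over the table, and the tissue comparisons kept no CpG to test. P20 libraries alone gave 1 between liver and muscle, 2 between liver and heart and 1 between heart and muscle, where the whole table gave 4223, 2220 and 890. The logit scale gave 1 between liver and heart, 4 between heart and muscle and 0 for the interaction, where the whole table gave 5897, 5878 and 74. Stricter limits (adjusted p of 0.05, 10 percentage points) gave 2 and 4 (5480 and 5113 over the table), and an unmoderated model gave 4 between heart and muscle (6360 over the table). Leaving out libraries gave 1 to 2 in liver with age (2 without E18.5 replicate 14 or 15 or P20 replicate 2 or 3), 9 to 18 between liver and muscle (9 without liver P15 replicate 2), 1 to 6 between liver and heart (1 without liver P15 replicate 2, and 3 or fewer without liver P15 replicates 1 and 4, P1 replicates 3 and 5, P20 replicates 3 and 5 and P5 replicate 3, or heart P15 replicate 5, P1 replicate 5, P20 replicate 2 and P5 replicates 3 and 5), 2 to 8 between heart and muscle (2 without muscle P5 replicate 4, and 3 or 4 without muscle P15 replicate 4, P1 replicate 3 and P5 replicate 3, or heart P1 replicates 2 and 3, P20 replicates 1 and 5 and P5 replicate 5) and 0 to 1 for the interaction (0 where its CpG was not tested). The whole table then gave 4166 to 9365, 6744 to 9715, 4689 to 7000, 4750 to 6627 and 825 to 1433 in the same order, with 6744 and 4689 without liver P15 replicate 2 and 5111 between heart and muscle without muscle P5 replicate 4. With a replicate block the counts were 0 in heart with age, 13, 4 and 7 between liver and muscle, liver and heart, and heart and muscle (0, 9488, 6788 and 6472 over the table), so the pairing by number changed no count by more than 1.5 times; E18.5 and P20 share only number 1, so no block could be fitted there.

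Levels moved between settings in part. P20 libraries alone gave, in percentage points, liver minus muscle 11.6 at H19, 6.74 at Snrpn, 15.2 at Gnas, 3.91 at Grb10 and -0.433 at Igf2r, heart minus muscle 5.09 at Snrpn and 11.9 at Grb10, liver minus heart -23.4 at H19, and -1.71 at Grb10 run 2 for liver minus muscle; fewer libraries also raise the smallest p. The densest run gave 12.9 for Peg10 liver minus muscle and -7.06 for Grb10 liver minus heart. A plain mean gave 14.4 with age for heart Peg10, -0.177 for heart Gnas and -2.81 for muscle Grb10. CpGs with every value gave 4.36 for heart Peg10 and -11.6 (exact permutation p = 0.0159) for liver Grb10. Chosen after seeing the data, single strands gave 1.44 for muscle Peg10 (minus), 3.42 for liver Grb10 (plus) and 7.15 for Gnas liver minus muscle (minus), and libraries with values at 50% of CpGs gave -0.609 for heart Gnas with age and 7.18 for Gnas liver minus heart (permutation p = 0.024). Without single libraries the age differences that changed sign or passed the limit ranged from 3.46 to 19.6 (H19 heart), -0.305 to 5.25 (Snrpn muscle), -6.72 to 2.70 (Peg10 muscle), -8.99 to 1.91 (Peg10 heart), -1.84 to 9.71 (Gnas heart), -6.17 to 2.07 (Igf2r heart), -2.20 to 0.667 (Grb10 liver) and -1.30 to 2.17 (Grb10 muscle). Leaving out single libraries, also chosen after seeing the data for tissue differences, gave 7.91 to 14.1 for Snrpn heart minus muscle, 7.04 to 10.6 for Peg10 liver minus muscle, 2.88 to 9.16 for Gnas liver minus heart, and -2.27 to 6.09 and 3.74 to 12.1 for Igf2r liver minus muscle and heart minus muscle, and no other tissue difference of a window changed sign or side of 0.05. A band of 35 to 65% held 11 CpGs in muscle (20.4%, against 18.04% of the table), and 3 of the 5 closest genes were kept under the other gene rule. The causes were not tested, and the unknown depth per value limits all of these.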
